A study of Homo sapiens with 7 samples.

Results

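The 8 genes described here are stress-induced brakes on the growth kinase complex mTORC1 and 3 components of the complex itself. The brakes are DDIT4 (REDD1), its paralog DDIT4L (REDD2) and the sestrins SESN1, SESN2 and SESN3, and the components are the kinase gene MTOR, the scaffold gene RPTOR and AKT1S1, which encodes PRAS40. They were chosen by name, with earlier results of these data known. The platform annotation assigned 17 probe sets to one of them alone, of 41091 probe sets with a single gene. All 8 genes were measured, among 19775 genes in all. HT1080 is an established human fibrosarcoma line, and each of its 7 cultures was read on 1 Affymetrix array. For 2 h, 4 cultures were exposed to a polyphenol each. Catechin was given at 11.25 ng/ml, both epicatechin and taxifolin at 6.25 ng/ml, and resveratrol at 2195 ng/ml. A further culture held 5% serum from people who had taken pycnogenol, a pine bark extract, and another held 5% control serum, both for 2 h. An untreated culture was the remaining one, for which the labels give neither a time nor a solvent. The compounds and sera followed a change of medium, and the labels do not say whether the new medium contained bovine serum or whether the untreated culture had the change, so those steps and the treatment cannot be told apart in a difference from the untreated array. The treatment labels give no donors or pooling for the 2 sera, so other differences between the sera cannot be told apart from pycnogenol intake.

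mTORC1 stands at the lysosome and couples amino acids, growth factors and energy to protein synthesis. DDIT4 is transcribed under hypoxia, glucocorticoids, DNA damage and endoplasmic reticulum or amino acid stress, and its protein restores the TSC1-TSC2 complex, which switches off the RHEB GTPase that activates mTORC1. Sestrins act on the amino acid branch: SESN2 binds leucine, and when leucine is missing it holds back GATOR2, a complex needed for the RAG GTPases to recruit mTORC1. SESN1 and SESN2 are known p53 targets, SESN2 is also induced by the stress factor ATF4, and SESN3 is known as a FOXO target. AKT1S1 is a subunit and substrate of mTORC1 that inhibits it until it is phosphorylated.

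The start regions of DDIT4 and SESN2 are shown because these were the members whose signal varied most among those above the signal filter. Each is the RefSeq window from 250 bases before to 50 bases after the gene's start in GRCh38.p14, on the plus strand, at chr10:72273674-72273973 for DDIT4 and chr1:28259268-28259567 for SESN2. Capitals mark every match, on either strand, to ACGTG or GCGTG (the core bound by hypoxia-inducible factors) or to CCAAT (the box bound by NF-Y, read as ATTGG on the other strand).
DDIT4: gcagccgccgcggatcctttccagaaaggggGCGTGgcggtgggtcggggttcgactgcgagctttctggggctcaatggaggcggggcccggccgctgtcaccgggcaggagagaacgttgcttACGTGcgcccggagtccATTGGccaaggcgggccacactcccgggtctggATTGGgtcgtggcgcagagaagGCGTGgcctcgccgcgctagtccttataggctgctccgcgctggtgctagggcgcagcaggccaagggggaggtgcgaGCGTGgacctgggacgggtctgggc
SESN2: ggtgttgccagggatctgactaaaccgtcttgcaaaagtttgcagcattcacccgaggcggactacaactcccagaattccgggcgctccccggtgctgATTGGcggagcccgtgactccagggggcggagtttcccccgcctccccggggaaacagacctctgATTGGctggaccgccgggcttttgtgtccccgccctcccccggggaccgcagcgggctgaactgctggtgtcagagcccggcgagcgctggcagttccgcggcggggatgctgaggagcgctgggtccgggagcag

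The DDIT4 window held 4 matches to the hypoxia-inducible factor core, with ACGTG at -125 to -121 from the start, and 4.4% of all 35116 windows held at least 4. DDIT4 and SESN2 shared 2 CCAAT matches each on the minus strand, at -108 and -75 in DDIT4 and at -151 and -86 in SESN2 (left end of each match). At least 2 were found in 10.75% of all windows, among them that of MTOR, which held 3. Neither window held TGATGNAA, the composite element of ATF4 and C/EBP factors, which was found in 3.62% of windows, nor TGACGTCA (1.85%), the palindrome of the glucocorticoid receptor (0.39%), CACGTG (7.26%) or the FOXO motif GTAAACA (3.42%). CACGTG contains ACGTG, so those searches overlap. Windows were at hand for DDIT4, DDIT4L, SESN2, SESN3, MTOR and RPTOR, and 3 for SESN1. A match is a description of letters in this window, and elements farther away were not searched.

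Every group had 1 array, so there was no replicate error to judge a difference by, no test was possible and no p-value is given. All values are MAS5 signals on a linear scale, and a difference is the log2 signal of the first array minus that of the second. The number of arrays limits the precision. Genes were compared when their mean signal reached the median of all genes, a signal of 269. This filter was passed by 7 of the 8 members and by 9888 genes in all, and signals below it were not shown to be above background. The 5 arrays without test serum differed from one another less (SD of log2 differences over genes 0.235 to 0.282 in 10 pairs) than they did from the serum arrays (0.323 to 0.387 in 10 pairs). The 2 serum arrays differed from each other by an SD of 0.277, with 53 genes at 2-fold, which lay inside the spread of the 5 arrays (30 to 72 genes at 2-fold). Of 8 mesenchymal and fibrosarcoma markers 7 passed the filter, with VIM between 46701 and 50229, while S100A4 did not. Of 5 epithelial markers only KRT18 passed (17292 to 19292), of 3 endothelial markers none, and of 5 blood markers only HBB (227 to 522), with the leukocyte marker PTPRC at 4.78 to 79.7. The labels name no batch.

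DDIT4 was much lower with pycnogenol serum than on any other array. Its single probe set, 202887_s_at, read 9525 with catechin, 12014 with epicatechin, 10654 with taxifolin and 10467 with resveratrol, 1253 with pycnogenol serum, 8185 with control serum and 11957 in the untreated culture. The pycnogenol serum array was the lowest by a wide gap, the control serum array was next, and the 5 arrays without test serum lay close together above both. Over those 5 the log2 range was 0.33, near the median range of 0.32 over all compared genes, whereas over all 7 arrays it was 3.26, a range reached by 0.04% of compared genes. The log2 difference of pycnogenol serum from control serum was -2.71, which corresponds to a 6.53-fold lower signal, and only 1 of the other 9887 genes lay lower. Control serum differed from the untreated culture by -0.55, and 5.53% of genes lay as low or lower. That part made up 16.8% of the whole difference of -3.25 between pycnogenol serum and the untreated culture, where DDIT4 was the lowest of all compared genes. Those comparisons share arrays and are not independent of one another. An array averages over a whole culture, so fewer cells with the transcript and less of it per cell cannot be told apart.

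SESN2 was lower on both serum arrays as well, on both of its probe sets. The brighter one, 223196_s_at, read 1546 with catechin, 2308 with epicatechin, 2205 with taxifolin and 1702 with resveratrol, 816 with pycnogenol serum, 1346 with control serum and 2444 in the untreated culture. The second, 223195_s_at, read 1437, 1892, 1602 and 1400.2 with the compounds in the same order, 495 with pycnogenol serum, 917 with control serum and 2270.2 in the untreated culture. On each the pycnogenol serum array was lowest, the control serum array next and the untreated array highest. Pycnogenol serum differed from control serum by -0.72 on the brighter and -0.89 on the second probe set, and control serum from the untreated culture by -0.86 and -1.31. Of the SESN2 difference of -1.58 between pycnogenol serum and the untreated culture, 54.4% lay between control serum and the untreated culture. This contrast with DDIT4 rests on the untreated array, which was the highest for SESN2. Against the mean of all arrays without test serum, control serum lay at -0.58 on the brighter probe set. That was smaller than the -0.72 between the serum arrays, so the larger part then lay between those, as for DDIT4. As low or lower than SESN2 were 1.32% of genes between the serum arrays and 1.49% between control serum and the untreated culture.

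**Figure D1:**
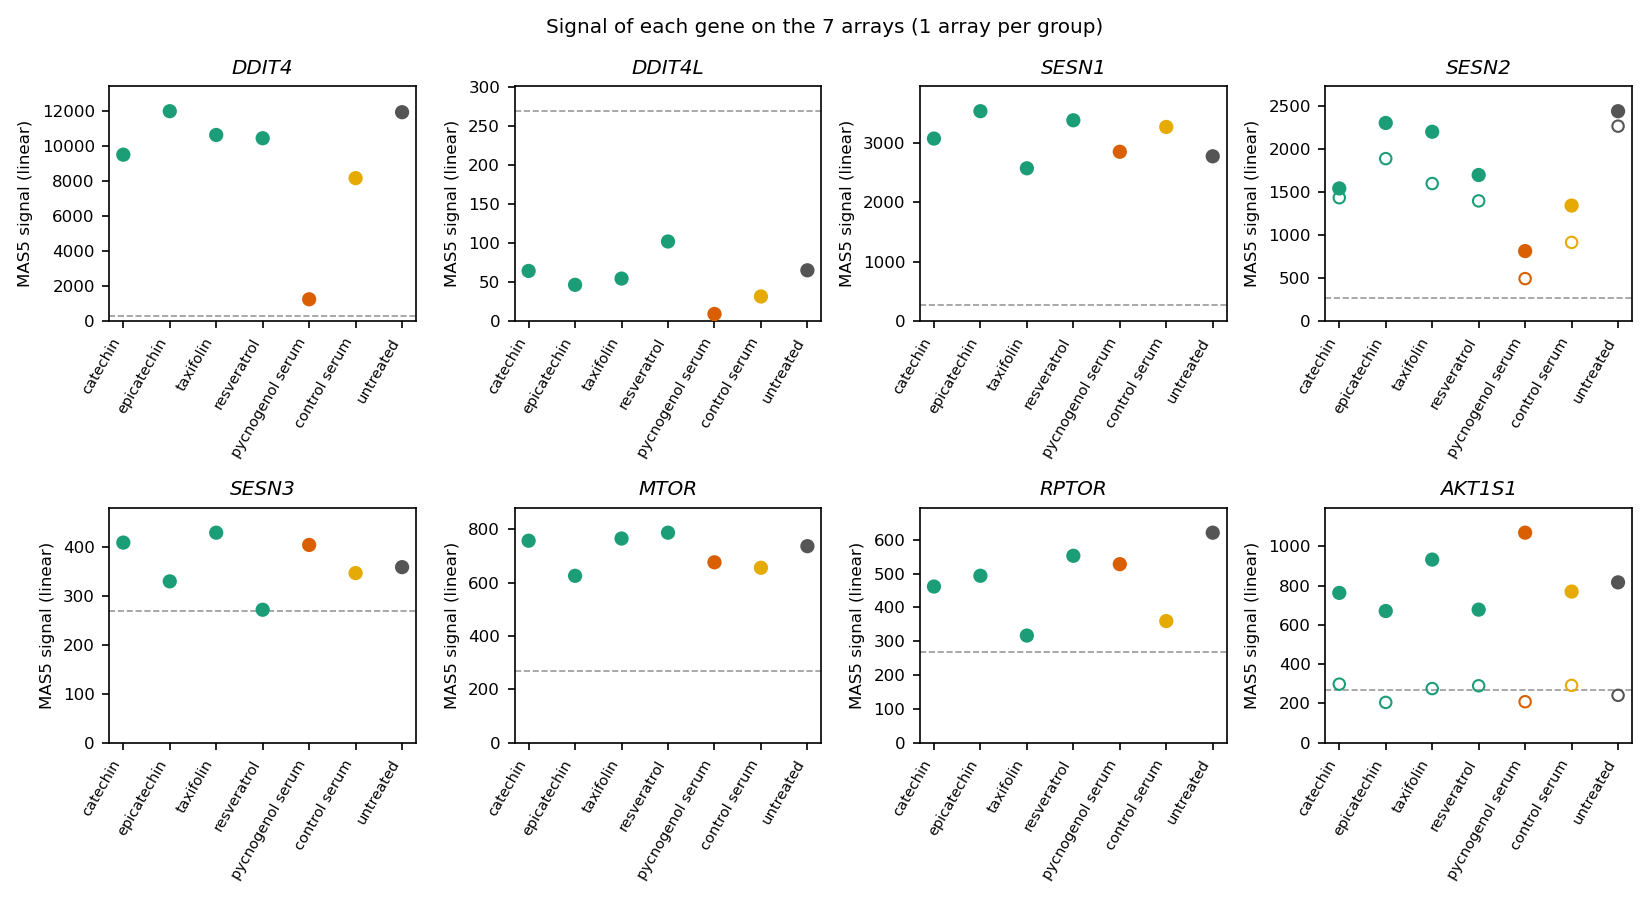
MAS5 signal (linear axis from 0) of each of the 8 genes on the 7 arrays, 1 array per group, with the filled points from the brightest probe set and the dashed line at the filter's 269. Open points show the second probe set of SESN2 and that of AKT1S1, whose mean lay just under the filter. DDIT4 drops to 1253 with pycnogenol serum, both SESN2 probe sets are lowest on the serum arrays, and MTOR stays between 625 and 787.

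The other sestrins did not share this order. SESN1, read from 1 probe set, had signals of 3075 with catechin, 3536.5 with epicatechin, 2575 with taxifolin and 3383 with resveratrol, 2853 with pycnogenol serum, 3271 with control serum and 2777 in the untreated culture. Its serum arrays lay inside the range of the others, and its log2 range over 7 arrays was 0.458, beside 0.465 for the median gene. SESN3 had 7 probe sets, of which only the brightest, 225123_at, passed the filter, with 408, 329, 429 and 271 for the compounds in the order above, 404 with pycnogenol serum, 346 with control serum and 358 in the untreated culture. The serum arrays again lay inside the range, and resveratrol was lowest, at -0.40 against the untreated culture. All SESN3 signals were close to the filter. Its pycnogenol against control serum difference of 0.22 became -0.17 with the mean of all 7 probe sets, 6 of them dim.

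DDIT4L, whose protein also restrains mTORC1, was not shown to be expressed. It read 64.3 with catechin, 46.6 with epicatechin, 54.6 with taxifolin and 102 with resveratrol, 9.24 with pycnogenol serum, 31.6 with control serum and 65.2 in the untreated culture. All 7 signals were under the filter, and both serum arrays were under the floor of 34.9 to which low signals were raised, so it entered no comparison.

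Of the mTORC1 components, MTOR was the steadiest. It read 757 with catechin, 625 with epicatechin, 765 with taxifolin and 787 with resveratrol, 676 with pycnogenol serum, 655 with control serum and 736 in the untreated culture. Its log2 range of 0.33 was exceeded by most genes (72.4% had at least that range), and its second probe set read at most 84.7, under the filter. AKT1S1 read 763, 671, 933 and 678 with the compounds in the same order, 1069.6 with pycnogenol serum, 769.7 with control serum and 817 in the untreated culture. It was highest with pycnogenol serum, at 0.47 against control serum, but its second probe set, with a mean just under the filter, had the opposite sign at -0.48 (209 with pycnogenol serum and 292 with control serum).

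RPTOR, whose product recruits substrates to mTORC1, was not steady. Its only probe set read 462 with catechin, 494 with epicatechin, 317 with taxifolin and 553 with resveratrol, 528 with pycnogenol serum, 359.6 with control serum and 621 in the untreated culture. Taxifolin was lowest, control serum next, and the untreated array highest, so all 6 treated arrays lay below it. The log2 range of 0.97 over the 5 arrays without test serum was reached by 2.6% of compared genes. RPTOR differed by -0.97 with taxifolin, just short of 2-fold, by -0.79 with control serum and by 0.55 between pycnogenol serum and control serum. The value with taxifolin was -0.74 when the other 4 arrays without test serum served as the reference, and that with control serum was -0.41 against all 5 of them. By the same reference catechin lay at -0.060, epicatechin at 0.060 and resveratrol at 0.26. The reference for these compounds includes the low taxifolin array, so the changed signs do not by themselves show that the untreated array was unusual. Its lowest signal was near the filter, and it had no second probe set.

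Counted by the 2-fold rule, 1 of the 7 members above the filter, DDIT4, was lower with pycnogenol serum than with control serum and none was higher. In that comparison 0.314% of all compared genes were lower and 0.222% higher by at least 2-fold, and 0.536% differed in either direction. No member differed by at least 2-fold between control serum and the untreated culture, against 1.2% of all genes. Between pycnogenol serum and the untreated culture DDIT4 and SESN2 were lower by at least 2-fold and none was higher, against 1.51% of all genes lower and 2.24% in either direction. At 1.5-fold the members counted were DDIT4 and SESN2 between the serum arrays (both lower, against 2.34% of all genes) and SESN2 and RPTOR between control serum and the untreated culture (both lower, against 4.66%). DDIT4 and SESN2 were also the members past 1.5-fold between pycnogenol serum and the untreated culture, against 6.08% of all genes lower. The median log2 difference of the 7 members was 0.044 between the serum arrays and -0.17 between control serum and the untreated culture, beside 0.0080 for all genes in both. Both serum arrays lay below all 5 others for DDIT4 and SESN2 and above them for no member. The same was true, lower, for 16.1% of all compared genes, so the position alone is common, and the gap between the highest serum and the lowest other array was only 0.22 (log2) for DDIT4 and 0.20 for SESN2.

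**Figure D2:**
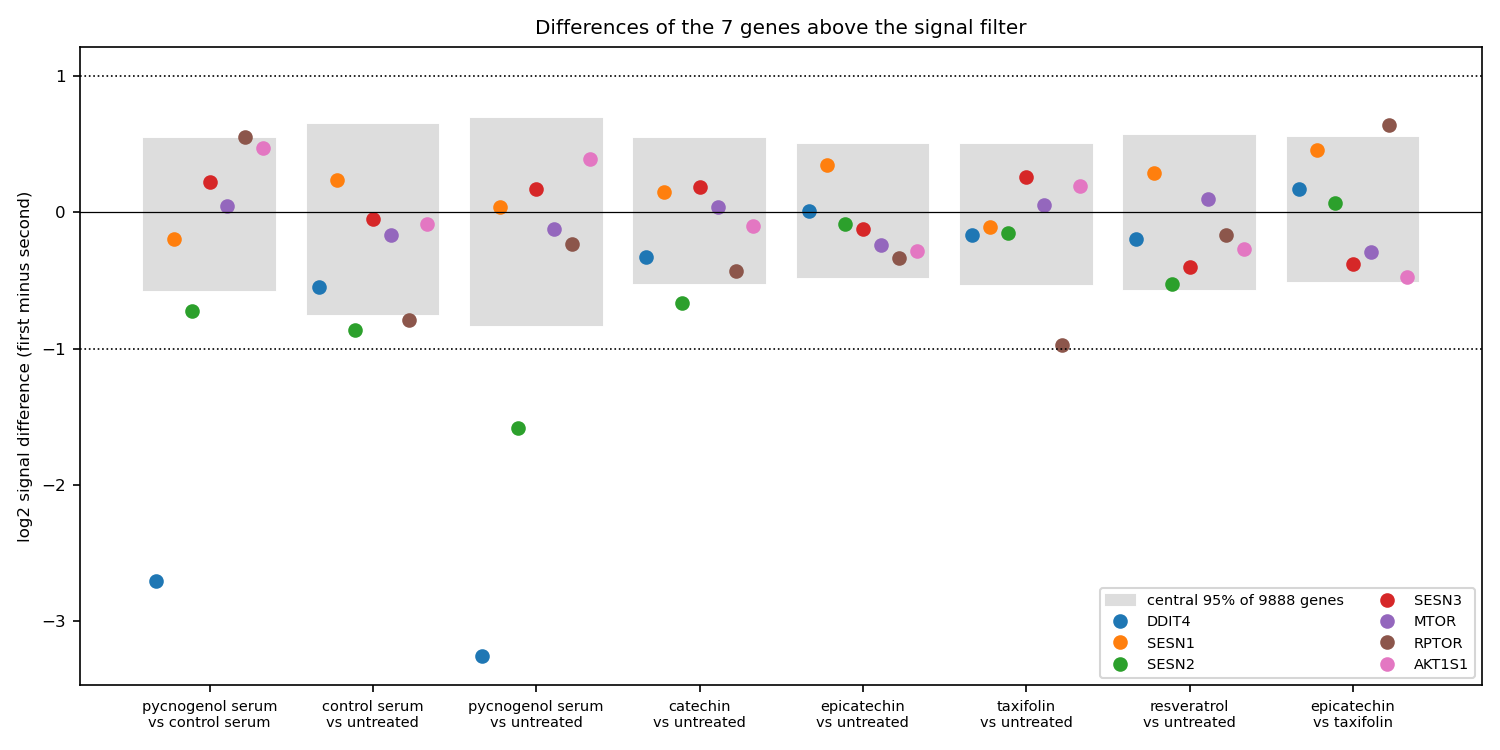
Log2 signal differences (vertical axis) of the 7 genes above the signal filter in 8 comparisons of single arrays, with grey boxes over the central 95% of all 9888 compared genes and dotted lines at 2-fold. DDIT4 at -2.71 and -3.25 and SESN2 at -1.58 lie beyond 2-fold in comparisons with pycnogenol serum, RPTOR at -0.97 with taxifolin falls just short, and no gene passes 2-fold with a compound.

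Under the 4 compounds no member differed from the untreated culture by at least 2-fold. In either direction the share of all genes that did was 0.455% with catechin, 0.314% with epicatechin, 0.465% with taxifolin and 0.728% with resveratrol. DDIT4 differed by -0.33, 0.0069, -0.17 and -0.19 in that order, each inside the central 95% of all genes. SESN2 differed by -0.66 with catechin, -0.083 with epicatechin, -0.15 with taxifolin and -0.52 with resveratrol on the brighter probe set, and by -0.66, -0.26, -0.50 and -0.70 on the second. Every compound array therefore read below the untreated array on both probe sets. The 4 comparisons share that array. With the other arrays without test serum as the reference, SESN2 lay at -0.47 with catechin and -0.30 with resveratrol, but at 0.25 with epicatechin and 0.17 with taxifolin. The reference for epicatechin and taxifolin includes the lower catechin and resveratrol arrays, so their changed signs do not by themselves show that the untreated array was unusual. At 1.5-fold SESN2 was the single member counted with catechin, against 1.57% of all genes lower, and RPTOR the single one with taxifolin, against 1.84%. As low or lower than SESN2 against the untreated culture were 0.941% of genes with catechin and 3.26% with resveratrol. Doses differed between the compounds, except for epicatechin and taxifolin, both at 6.25 ng/ml, which were the only pair compared directly.

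Taxifolin is a dihydroflavonol that carries a carbonyl group on the central ring where the flavan-3-ol epicatechin has none, and the substituents of that ring also differ in their arrangement. Catechin is a stereoisomer of epicatechin, but their doses differed, so the pair was not compared. Epicatechin minus taxifolin was 0.17 for DDIT4, 0.066 for SESN2 on the brighter and 0.24 on the second probe set, 0.46 for SESN1, -0.38 for SESN3, -0.29 for MTOR, 0.64 for RPTOR and -0.48 for AKT1S1. No member reached 2-fold, against 0.324% of all genes, and RPTOR was the single member past 1.5-fold, against 2.06% of all genes higher by that much. With 1 array for each compound no interval could be given, so the values do not show that the compounds acted alike or differently. AKT1, which encodes a kinase upstream of mTORC1 and is no member, lay at 1.002 in this comparison, with 1459 for epicatechin and 728 for taxifolin, and was noticed after its values were seen.

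Among genes of the wider pathway, the machinery between the brakes and mTORC1 showed no 2-fold difference in either serum comparison. The list of the TSC complex, RHEB and further mTORC1 subunits had 6 of 7 genes above the filter, with a median of 0.099 between pycnogenol and control serum and -0.095 between control serum and the untreated culture. MLST8, an mTOR-binding subunit, led it at 0.33 and -0.43, with TSC2 at 0.15 and -0.27, RHEBL1 at 0.18 in the first and TBC1D7 at 0.21 in the second. The amino acid branch, with 20 of 27 genes above the filter, had medians of 0.038 and 0.017, with 10 genes below 0 in the first comparison and 8 in the second. Its largest differences between the serum arrays were ITFG2, a KICSTOR subunit, at 0.82 (760.3 with pycnogenol serum and 431 with control serum), NPRL2, a GATOR1 subunit, at -0.74 and FLCN at 0.52. ITFG2 was -0.33 and FLCN -0.024 with the mean of their probe sets. Between control serum and the untreated culture they were SLC38A9, a lysosomal arginine sensor, at -0.65, the GATOR2 subunit WDR59 at -0.45 and FNIP2 at 0.44.

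Upstream kinases and mTORC2 genes, 6 of 10 above the filter, had medians of 0.27 between the serum arrays and -0.089 between control serum and the untreated culture, and none reached 2-fold. PRR5L lay at 0.50 and 0.49, MAPKAP1 at 0.36 and -0.22, AKT1 at 0.49 in the first comparison and RICTOR at -0.37 in the second. The mTORC1 substrate list, 10 of 12 above the filter, had medians of 0.057 and -0.15. LPIN1, a phosphatidate phosphatase that mTORC1 phosphorylates, differed by -0.81 with control serum (2451 against 4297 in the untreated culture) and by -0.0038 between the serum arrays. GRB10 lay at -0.29 and -0.53, ULK1 at 0.33 and RPS6 at 0.23 in the first comparison, and EIF4E at 0.33 in the second.

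Of 14 genes known to induce the brakes 11 were above the filter, with a median of -0.053 between the serum arrays and -0.25 between control serum and the untreated culture, and none reached 2-fold in either comparison. DDIT3, which encodes the stress factor CHOP, read 1026 with pycnogenol serum, 2052 with control serum and 3754 in the untreated culture, with pycnogenol serum at -0.9993 against control serum and control serum at -0.87 against the untreated culture. ATF4 itself read 23348 with pycnogenol serum, 33855 with control serum and 41427 in the untreated culture, at -0.54 and -0.29. The order of these arrays was that of SESN2 and DDIT4. SP1 lay at 0.61 and -0.50 and EPAS1, which encodes HIF-2alpha, at -0.30 in the second comparison.

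Of 12 other ATF4 targets all passed the filter and all 12 lay below 0 in both serum comparisons, with medians of -0.52 and -0.56, beside 0.0080 for all genes. Of all compared genes 48.4% lay below 0 between the serum arrays and 48.7% between control serum and the untreated culture. The 2 comparisons share the control serum array. The list was chosen with earlier results of these data known, so its shared direction is not independent evidence. Lower by at least 2-fold between the serum arrays were 2 of the 12 targets, against 0.314% of all genes. These were CHAC1 at -2.91 and ATF3 at -1.0005, and VLDLR lay at -0.997. The CHAC1 signal with pycnogenol serum, 143, was under the filter and not shown to be above background, so the size of its difference is uncertain. ATF3 was 0.15 with the mean of its probe sets. Between control serum and the untreated culture 3 were lower by that much, against 0.758% of all genes: TRIB3 at -1.31, VLDLR at -1.12 and CTH, an enzyme of cysteine synthesis, at -1.06. Between pycnogenol serum and the untreated culture 8 of 12 were, against 1.51% of all genes. Of that whole difference, 9 of the 12 had the larger part between control serum and the untreated culture, as SESN2 did by this reference. The larger part lay between the serum arrays for the other 3, CHAC1, ATF3 (99.7%) and PSAT1 (53.8%), as it did for DDIT4 (83.2%). No share is given for CHAC1 because of its low signal. These parts take the single untreated array as their end point. Among the 9, ASNS (52.0%) and VLDLR (52.8%) were close to even, so the split can depend on that array. Against the mean of all arrays without test serum, the brighter SESN2 probe set had its larger part between the serum arrays. The second probe set was not compared with that reference. No ATF4 target reached 2-fold with any compound, and the list medians there ran from -0.14 with resveratrol to 0.040 with taxifolin.

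Targets of the glucocorticoid receptor, another inducer of DDIT4, had 5 of 7 genes above the filter. Their median was -0.91 between the serum arrays and 0.34 between control serum and the untreated culture. The median of -0.91 depended on the probe sets and the filter: it was -0.305 when all probe sets were averaged, -0.024 without probe sets ending in _x_at or _s_at, -0.535 with no signal filter and -0.157 with the filter set to the 75th percentile. Between the serum arrays KLF9 lay at -1.52, TSC22D3 at -1.50 and DUSP1 at -0.91, the first pair past 2-fold. With the mean of all probe sets KLF9 was -0.33, TSC22D3 -0.62 and DUSP1 -0.30, and TSC22D3 was 0.74 without probe sets ending in _x_at or _s_at. FKBP5, a chaperone that the receptor induces, was higher with control serum at 0.67 with TSC22D3 at 0.43, while KLF9 lay at -0.52. Between pycnogenol and control serum FKBP5 lay at only -0.16, and 1 of the 5 genes lay above 0. NR3C1, the receptor gene, differed by -0.053 and 0.051.

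Hypoxia-inducible factor targets, 6 of 8 above the filter, had medians of 0.023 between the serum arrays and -0.30 between control serum and the untreated culture, with none past 2-fold. VEGFA, an angiogenic growth factor gene, lay at -0.56 and -0.75, PFKFB3 at 0.27 and 0.42, PFKFB4 at 0.78 in the first and NDRG1 at -0.53 in the second. HIF1A differed by 0.036 and -0.022. FOXO targets, 7 of 8 above the filter, had medians of -0.27 and -0.28. Their largest differences between the serum arrays were TRIB2 at -0.64 (239 with pycnogenol serum), CCNG2, a cell cycle inhibitor gene, at -0.56 and BCL6 at -0.56. Between control serum and the untreated culture CCNG2 at -1.07 was lower by at least 2-fold, with TXNIP at -0.48 and CITED2 at -0.35. The p53 target list, 5 of 6 above the filter, had medians of 0.11 and 0.12 and no gene at 2-fold. CDKN1A, an inhibitor of cyclin-dependent kinases, lay at 0.11 and 0.25, PLK3 at 0.19 and -0.23, GADD45A at -0.15 between the serum arrays and MDM2 at 0.13 between control serum and the untreated culture. None of the genes above the filter in these 10 lists differed by 2-fold between a compound and the untreated culture.

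**Figure D3:**
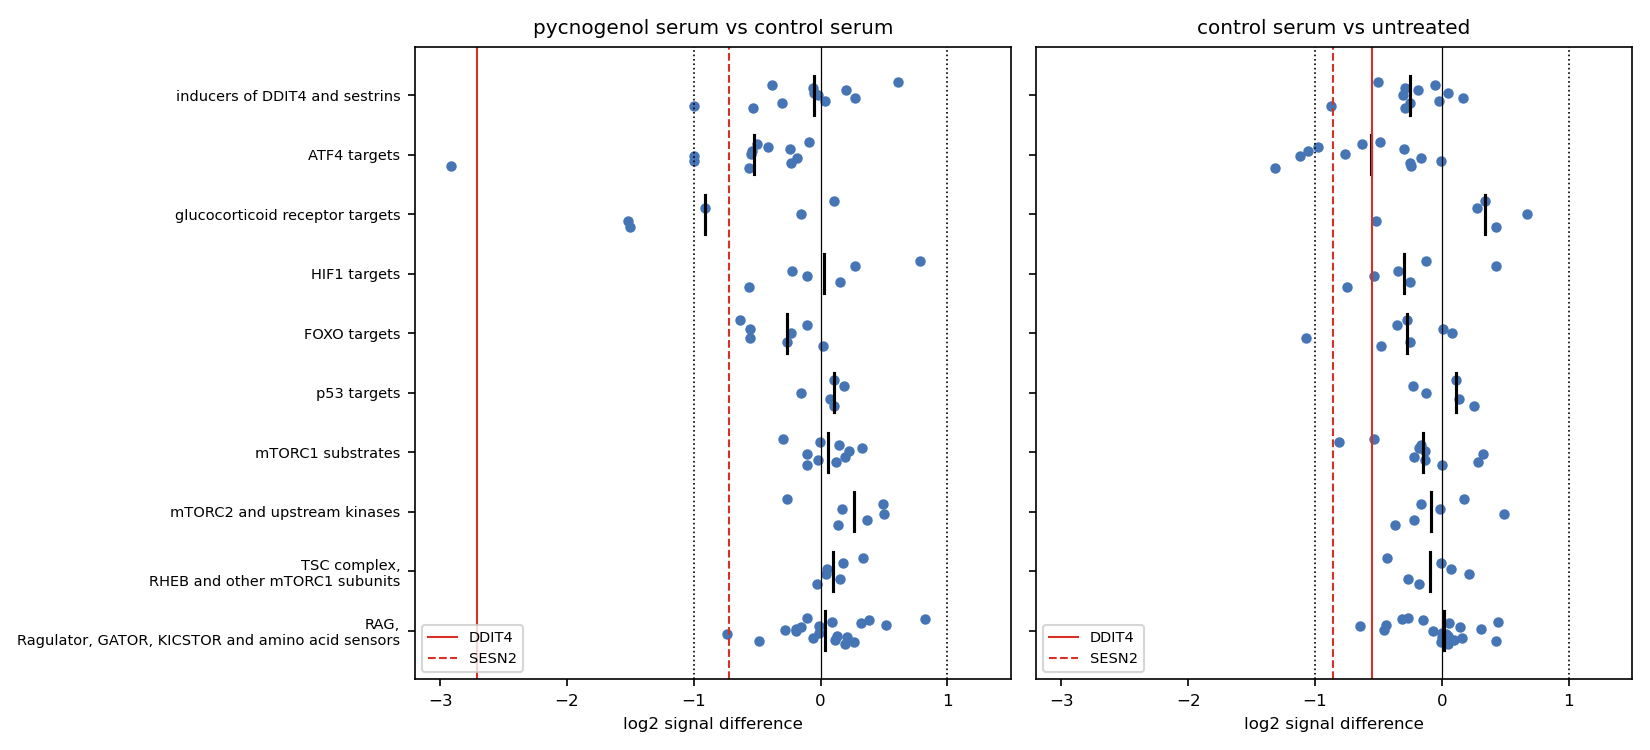
Log2 signal differences (horizontal axis) of the genes above the signal filter in 10 lists around mTORC1, with a point for each gene and a black bar at the list median, for pycnogenol serum against control serum on the left and control serum against untreated on the right. Red lines mark DDIT4 (solid) and SESN2 (dashed) and dotted lines 2-fold. The lists were chosen with earlier results of these data known. All 12 ATF4 targets lie below 0 in both panels, while the glucocorticoid receptor list has its median at -0.91 on the left (-0.024 without probe sets ending in _x_at or _s_at, and -0.305 when all were averaged) and 0.34 on the right.

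The genes whose profiles over the 7 arrays lay nearest to DDIT4, by the root mean square distance of centred log2 signals, were IL1A at 0.15, CHAC1 at 0.17, KLF9 at 0.41, KLF4 at 0.42 and INHBE at 0.46. The root mean square deviation of DDIT4 from its own mean was 1.08, and the median gene's was 0.15. IL1A, a proinflammatory cytokine gene, read 193 with pycnogenol serum, 889 with control serum and 1536 in the untreated culture. CHAC1, which encodes a glutathione-degrading enzyme, read 143 with pycnogenol serum, 1077 with control serum and 1273 in the untreated culture. Both low signals were under the filter. All 5 genes were lowest with pycnogenol serum and had control serum next lowest, which largely follows from choosing them by likeness to DDIT4. IL1A lay at -0.14 between the serum arrays when probe sets ending in _x_at or _s_at were left out, and averaging its probe sets gave KLF4 a difference of -0.37.

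Nearest to SESN2 were CTH at 0.14, FAM107B at 0.15, CEBPG at 0.15, FAM167A at 0.17 and TUBE1 at 0.17, beside a deviation of 0.52 for SESN2 itself. CEBPG, a partner of ATF4 on its target genes, read 3886 with catechin, 4408 with epicatechin, 4115 with taxifolin and 3965 with resveratrol, 1741 with pycnogenol serum, 3066 with control serum and 4722 in the untreated culture. CTH read 1742 with pycnogenol serum, 2534 with control serum and 5275 in the untreated culture. For all 5 genes pycnogenol serum was lowest, which again largely follows from their choice by likeness. No gene was nearest to both DDIT4 and SESN2. These distances describe 7 single arrays and rest mostly on the serum arrays, and genes on an array share its scaling.

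**Figure D4:**
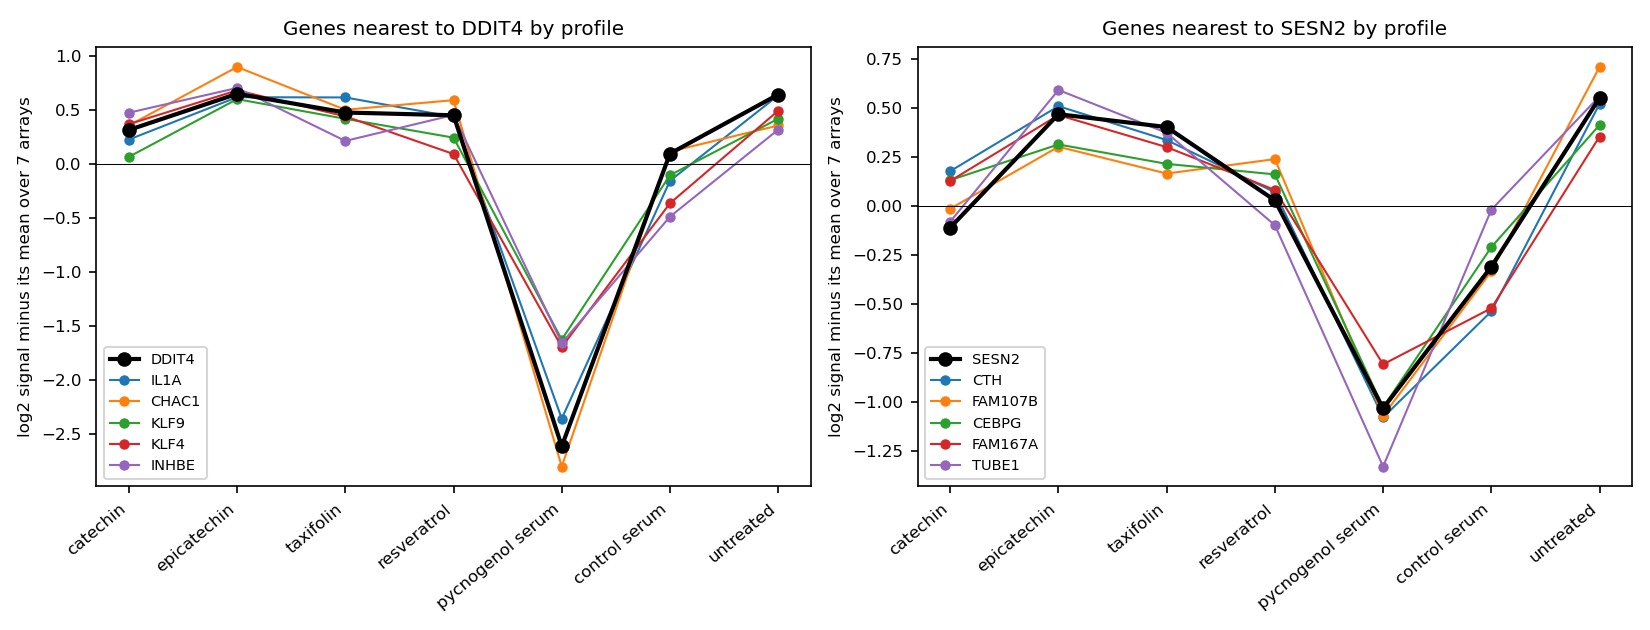
Log2 signal minus its mean over the 7 arrays (vertical axis) for DDIT4 with its 5 nearest genes on the left and SESN2 with its 5 nearest on the right, 1 array per group. The DDIT4 profile is flat over the arrays without test serum and drops with pycnogenol serum, and that of SESN2 is lower on both serum arrays and also lower with catechin and resveratrol than in the untreated culture.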

How the data were processed

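Expression was measured in HT1080 cells on 7 Affymetrix arrays of 54675 probe sets, 1 array for each of 7 groups taken from the treatment label. The deposited values are MAS5 signal intensity, 1 value for each probe set, per the submitters' processing notes. Its version and detection calls are not given in the sources used here. The trimmed mean of every array (2% cut from each end) came to 1000, and array medians ran from 114 to 136.

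Probe sets assigned to 1 gene by the platform annotation were used, with symbols updated through a RefSeq table (GRCh38.p14). Probe sets of several genes (1801) or with no entry (11721) and the 62 control probe sets were left out. Signals under the 25th percentile, 34.9, were raised to it. A gene's value came from its brightest probe set by mean log2 signal, and the 9888 genes with a mean at or above the median were compared, with Python 3.11.15, numpy 2.4.6 and pandas 2.3.3. Differences of at least 2-fold were counted, after the counting was checked on simulated data. No test was run, since each group had 1 array.

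The members and lists were chosen with earlier results of these data known. Named genes were all members, the 3 largest differences of each list in each serum comparison, any list gene past 2-fold with a compound, and the 5 genes nearest in profile to each member that ranged over at least 2-fold. For the serum comparisons other signals are given where a result turns on them. RefSeq promoter windows were searched for the motifs on both strands. Alternatives covered normalization, floor, filter, probe set choice, threshold and reference. Genes without an entry in the annotation used were not analysed here.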

Additional observations from a re-analysis of the deposited data

How the results depend on the processing

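No paired analysis was possible because each group had 1 array and the labels carry no replicate numbers. Leaving out a replicate was not possible for the same reason. Under the 3 other normalizations DDIT4 lay at -2.70 to -2.69 between the serum arrays, and the floor, filter and probe set settings could not move it, since it has 1 probe set far above them. SESN2 lay at -0.81 to -0.71 over the alternatives. Leaving out probe sets ending in _x_at or _s_at removed DDIT4, SESN1 and SESN2 by construction, so the members counted at 2-fold became 0 between the serum arrays, 0 between pycnogenol serum and the untreated culture, and 0 with both serum arrays outside the range of the others. The filter at the 75th percentile left DDIT4 and SESN1, with 1 member counted between pycnogenol serum and the untreated culture and 1 with both serum arrays outside the range, and the 3-fold threshold counted 1 between pycnogenol serum and the untreated culture. With the mean of all probe sets 1 member, SESN2 at -1.08, was counted between control serum and the untreated culture. At 1.5-fold 2 members were counted between the serum arrays, 2 between control serum and the untreated culture, 1 with catechin, 1 with taxifolin and 1 between epicatechin and taxifolin.

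Over all genes the 2-fold count was 53 between the serum arrays and 119 between control serum and the untreated culture. Averaging all probe sets gave 85 and 159, and the counts were 120 and 198 without the suffixes, 1674 and 1792 with no signal filter, 6 and 26 with the 75th percentile filter, 419 and 774 at 1.5-fold and 12 and 18 at 3-fold, and the second was 64 against all 5 arrays without test serum. Quantile normalization split the second into 59 lower and 62 higher, beside 75 lower and 44 higher.

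The alternatives for list medians and for named genes outside the members were added after the data were seen. Of 180 list medians recomputed, 4 moved by more than the SD of differences over genes, all of the glucocorticoid receptor targets between the serum arrays: -0.305 when all probe sets were averaged, -0.024 without probe sets ending in _x_at or _s_at, -0.535 with no signal filter and -0.157 with the 75th percentile filter, beside -0.914 as reported. Between those arrays ATF3 lay at 0.15 when all probe sets were averaged and TSC22D3 at 0.74 without the 2 suffixes, both of opposite sign. With the mean of all probe sets MTOR, whose second probe set was dim, lay at -0.72 between control serum and the untreated culture. With no floor DDIT4L lay at -1.78 between the serum arrays, from signals under the floor. The cause of these shifts was not tested unless stated. With 1 array for each group and no detection calls, differences of genes near the filter, RPTOR and SESN3 among them, are the least certain. Where the alternatives changed the reference array, SESN2 with epicatechin and taxifolin and RPTOR with epicatechin and resveratrol were among the differences that changed sign, as given above.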
